A study of Mus musculus with 25 samples.

Results

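The own-diet contrast of hypothalamic microRNAs (miRNAs) in males was taken as the RD-HCD against RD-RD comparison. The first part of a group name gives the dam's diet and the second the offspring's own diet. Both groups were therefore born to dams on regular chow (RD), and by their labels they differed in the offspring's diet. All 1618 miRNA entries of the comparison were included, out of 1721 entries in the table, the other 103 being piRNA entries. The mice were wild-type C57BL/6J, the hypothalamus was taken at 3 months of age, and the hypercaloric diet (HCD) was 52% fat with high sucrose. RD-HCD males ate HCD from weaning, whereas RD-RD males stayed on RD. Their dams ate RD during the 1 month before mating, in pregnancy and while nursing. There were 3 RD-HCD and 4 RD-RD male libraries, 7 of the 25 in the series, and the same contrast in females had 3 and 3 libraries. HCD-HCD and HCD-RD males, with 3 libraries each, were born to HCD dams and were compared by the authors with the same RD-RD males.

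Neither separate animals nor dams or litters are given per library, so the p-values measure the spread between these libraries, which may be technical. The files give 1 fold and 1 unadjusted DESeq2 p per miRNA and comparison, so no value per library is shown and the spread enters only through p. Ratios and unadjusted p-values below are from the authors' deposited table unless another source is named, and a ratio is RD-HCD over RD-RD; a ratio below 1 is a lower level in RD-HCD. Depth per library is unknown, and low counts were marked by the authors with remarks. A remark is set where the mean count of unique molecular identifiers (UMIs, tags that count molecules) was below 10 in 1 group, below 10 in both groups, or 0 in both. Of the 1618 miRNAs, 870 carried no remark, 180 were low in 1 group, 517 were low in both and 51 were at 0 in both. A p was given for 1426.

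A miRNA is cut from a hairpin precursor, and either the 5p or the 3p strand can be loaded into an Argonaute protein. Its seed, bases 2 to 8, pairs with sites in target messenger RNAs and lowers their stability and translation. miRNAs that share a seed form a family with overlapping targets. In the hypothalamus, which controls feeding, energy use and hormone release, loss of the miRNA-processing enzyme Dicer in neurons that express Pomc, the precursor of an appetite-suppressing peptide, causes obesity in mice.

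The sequences below are the mature miRNAs that the results turn on, from RefSeq on GRCm38.p6, written 5′ to 3′ with the seed in capitals. The first lines hold the 4 miRNAs called without a low-count remark. miR-666-5p lies at chr12:109717103-109717124 on the plus strand and miR-412-5p at chr12:109743303-109743325 in an intron of Mirg, both in the imprinted Dlk1-Dio3 region. miR-344f-5p lies at chr7:62046225-62046246 on the minus strand and miR-3966 at chr10:97423493-97423513 on the plus strand, both outside GENCODE M21 host genes.
miR-666-5p: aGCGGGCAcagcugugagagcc
miR-412-5p: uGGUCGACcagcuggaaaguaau
miR-344f-5p: aGUCAGUCuccuggcuggaguc
miR-3966: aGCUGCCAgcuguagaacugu
The next group is 4 members of the let-7 family, whose shared seed makes them one target family. miR-98-5p lies in an intron of Huwe1 at chrX:151913229-151913250 on the plus strand.
miR-98-5p: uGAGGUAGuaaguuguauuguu
let-7g-5p: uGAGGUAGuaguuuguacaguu
let-7c-5p: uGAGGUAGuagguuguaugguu
let-7b-5p: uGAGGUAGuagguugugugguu
The miR-181 guide strands share another seed.
miR-181a-5p: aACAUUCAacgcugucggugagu
miR-181b-5p: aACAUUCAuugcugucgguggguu
miR-181c-5p: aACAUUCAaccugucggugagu
miR-181d-5p: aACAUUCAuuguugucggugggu
The last group is the miR-183 cluster on the minus strand of chromosome 6 and miR-15b-5p in an intron of Smc4, the latter at chr3:69009775-69009796.
miR-96-5p: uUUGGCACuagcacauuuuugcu
miR-183-5p: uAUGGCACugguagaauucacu
miR-182-5p: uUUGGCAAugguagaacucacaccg
miR-15b-5p: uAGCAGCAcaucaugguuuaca

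In males, 21 of 1426 tested miRNAs passed a Benjamini-Hochberg adjusted DESeq2 p of 0.05, which is 1.47% of those tested. Of these, 2 rose (0.140%) and 19 fell (1.33%). Only 4 of the 21 carried no low-count remark, namely miR-666-5p, miR-344f-5p, miR-412-5p and miR-3966. The other 17 were low in 1 group (9) or in both (8), and 16 of those 17 fell. At an unadjusted p under 0.05 there were 178 miRNAs (12.5%), of which 31 were higher (2.17%) and 147 lower (10.3%). Among the 860 tested miRNAs with no remark, 69 had an unadjusted p under 0.05 (8.02%), 27 of them higher and 42 lower, so the excess of lower miRNAs lay mostly among low-count ones. All 28 low-in-1-group miRNAs and 77 of 81 low-in-both miRNAs at that level were lower. The low-count classes lay lower as a whole, whatever the p. Of the tested miRNAs low in 1 group, 161 of 177 had ratios below 1, with a median of 0.735. Of those low in both, 308 of 383 did, with a median of 0.800, whereas the median with no remark was 0.990. The plot of log2 fold against p shows these classes.

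**Figure D1:**
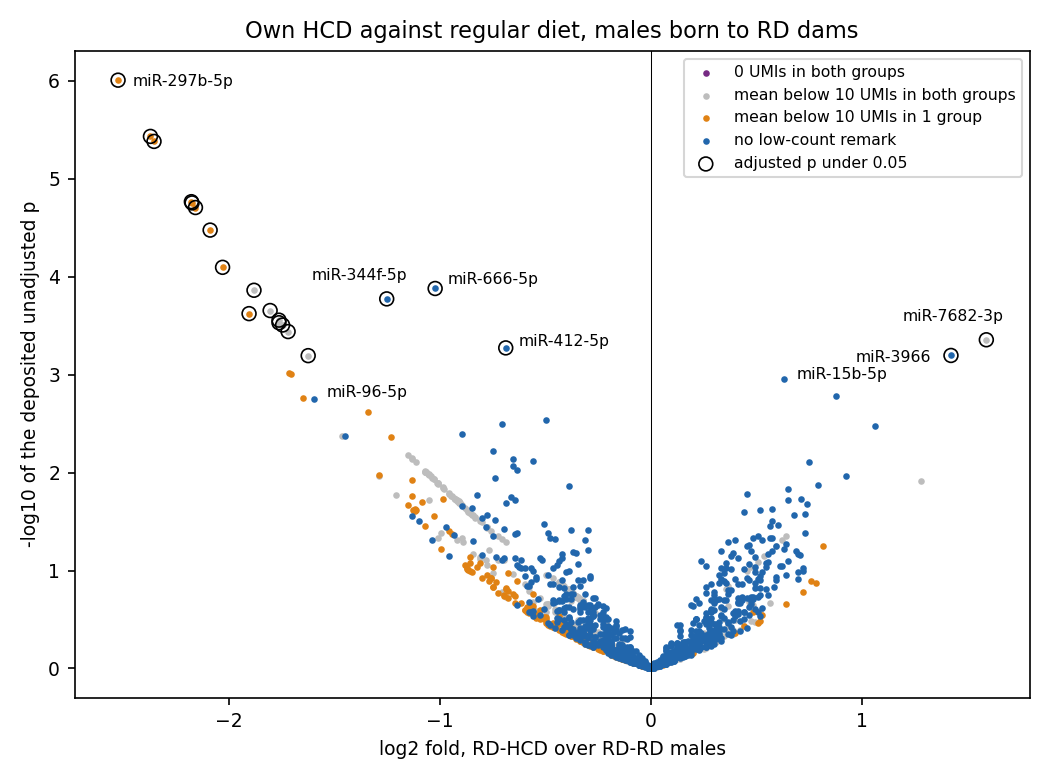
Each point is a tested miRNA, with the log2 fold of RD-HCD over RD-RD males on the x axis, −log10 of the deposited unadjusted p on the y axis, colours for the low-count remark and black rings for an adjusted p under 0.05. Most ringed miRNAs are low-count and on the left, and the ringed ones with no remark are miR-666-5p, miR-344f-5p, miR-412-5p and miR-3966.

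Most well-counted miRNAs lay close to their RD-RD level. Of the 860 with no remark, 489 (56.9%) lay within 1.2-fold of RD-RD in either direction, and 9 lay beyond 2-fold, 2 higher and 7 lower. Their median log2 fold was −0.01 against −0.12 over all tested miRNAs. When p-values were adjusted over the 860 alone, none passed, the smallest Benjamini-Hochberg adjusted DESeq2 p being 0.0726, while 69 had an unadjusted p under 0.05.

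Of the 4 called miRNAs with no remark, 3 fell. miR-666-5p, of the Dlk1-Dio3 cluster, had a ratio of 0.493 in the authors' deposited table, a log2 fold of −1.02 with an implied standard error (SE) of 0.27. The implied SE is the log2 fold over the normal score of its p, and gave a 95% interval of 0.343 to 0.708 for the ratio. Its Benjamini-Hochberg adjusted DESeq2 p was 0.0197. miR-344f-5p had a ratio of 0.420 (log2 −1.25, SE 0.33) and a Benjamini-Hochberg adjusted DESeq2 p of 0.0219. miR-412-5p had a ratio of 0.621 (log2 −0.69, SE 0.20) and a Benjamini-Hochberg adjusted DESeq2 p of 0.0401. miR-3966 rose, with a ratio of 2.68 (log2 1.42, SE 0.42, 95% interval 1.52 to 4.72) and a Benjamini-Hochberg adjusted DESeq2 p of 0.0435. In bulk tissue, fewer cells of a type and less RNA per cell cannot be told apart.

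In the authors' deposited table the female ratios of these miRNAs were 0.763 for miR-666-5p, 0.730 for miR-344f-5p, 0.901 for miR-412-5p and 0.971 for miR-3966. The other male groups share the RD-RD libraries with this comparison, so their values stand only beside it. miR-666-5p was at 0.429 in HCD-HCD and 0.503 in HCD-RD, and miR-344f-5p at 0.305 and 0.282. miR-412-5p was at 0.658 and 0.735, and miR-3966 at 1.76 and 2.06.

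The remaining 17 calls rested on low counts. The 16 lower ones had ratios from 0.174 to 0.325, and all 17 had implied SEs from 0.452 to 0.518 on the log2 scale. The smallest p in the comparison was that of miR-297b-5p, of a repeat-derived family, with a ratio of 0.174 (log2 −2.52, SE 0.52) and a Benjamini-Hochberg adjusted DESeq2 p of 0.00141. miR-5123 in an intron of B4galt1 was at 0.193, miR-1955-5p in Phf21a at 0.196, miR-153-5p in Ptprn2, a gene of secretory granules, at 0.221, and miR-105 in Gabra3, a GABA-A receptor subunit gene, at 0.222. miR-6968-3p (0.224), miR-6961-5p (0.235), miR-6360 (0.245) and miR-1956 (0.267) complete those low in 1 group. miR-6927-3p (0.272), miR-7038-3p (0.287), miR-7219-5p (0.295), miR-7009-3p (0.295), miR-8102 (0.299), miR-3075-5p (0.304) and miR-190b-3p (0.325) were low in both groups and fell. miR-7682-3p, also low in both, rose, at a ratio of 3.01.

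These low-count ratios were nearly equal in the 3 male comparisons that share the RD-RD libraries. miR-297b-5p was at 0.182 in HCD-HCD and 0.184 in HCD-RD, and miR-153-5p at 0.230 and 0.232. Exceptions were miR-1956 at 0.532 and miR-6360 at 0.375 in HCD-HCD, and miR-7682-3p at 1.11 and 1.12. In females, whose RD-RD libraries are separate, the authors' deposited table gave ratios of 1.03 for miR-297b-5p and 0.962 for miR-153-5p. Both were low-count in females too, where every low-count miRNA lay near 1. Female log2 folds ran from −0.26 to 0.29 for those low in 1 group and from −0.20 to 0.19 for those low in both. The female values therefore do not show whether these male falls are absent in females. The part of the RD-RD libraries in these calls was not tested.

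Library names in the workbook end in an order number whose meaning the sources do not give. Across the 7 male libraries there were 6 distinct numbers, since an RD-HCD and an RD-RD library both carry 4. Numbers were distinct over the 15 HCD-HCD, HCD-RD and RD-HCD males and HCD-HCD and HCD-RD females, and over the 10 RD-RD males, RD-RD females and RD-HCD females. If these groupings are numbering sets, RD-HCD and RD-RD males fall in different ones, and set and own diet cannot be told apart. The labels name no sets, and their part was not tested. The RD-HCD male libraries are also numbered differently in their sample titles, so single libraries were not matched.

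Just outside the threshold, low-count miR-5617-3p, in an intron of the synapsin gene Syn1, was at 0.305 and miR-7226-5p, in Ptprf, at 0.307, both with a Benjamini-Hochberg adjusted DESeq2 p of 0.0609. miR-15b-5p, a member of the miR-15 and miR-16 family that represses Bcl2 and cell-cycle genes, was at 1.55 (log2 0.63, SE 0.19, Benjamini-Hochberg adjusted DESeq2 p 0.0662). Next came miR-350-3p at 1.84, low-count miR-6399 at 0.319 and miR-96-5p at 0.331, each with a Benjamini-Hochberg adjusted DESeq2 p of 0.0929.

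Further unremarked miRNAs with the smallest p did not pass the adjusted threshold. Among the higher, the authors' deposited table gave ratios of 2.09 for miR-342-5p in an Evl intron, 1.90 for miR-340-3p, 1.73 for miR-98-5p, 1.68 for miR-6949-5p, 1.67 for miR-17-5p, 1.64 for miR-574-3p, 1.57 for miR-145a-3p and miR-365-3p, and 1.37 for miR-7a-1-3p. Among the lower it gave 0.366 for miR-7656-5p, 0.538 for miR-6540-5p, 0.595 for miR-34c-5p, 0.613 for miR-423-3p, 0.637 for miR-671-5p and miR-410-3p, 0.680 for miR-341-3p and 0.709 for miR-488-3p. The plot of these miRNAs shows male intervals and female values side by side.

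**Figure D2:**
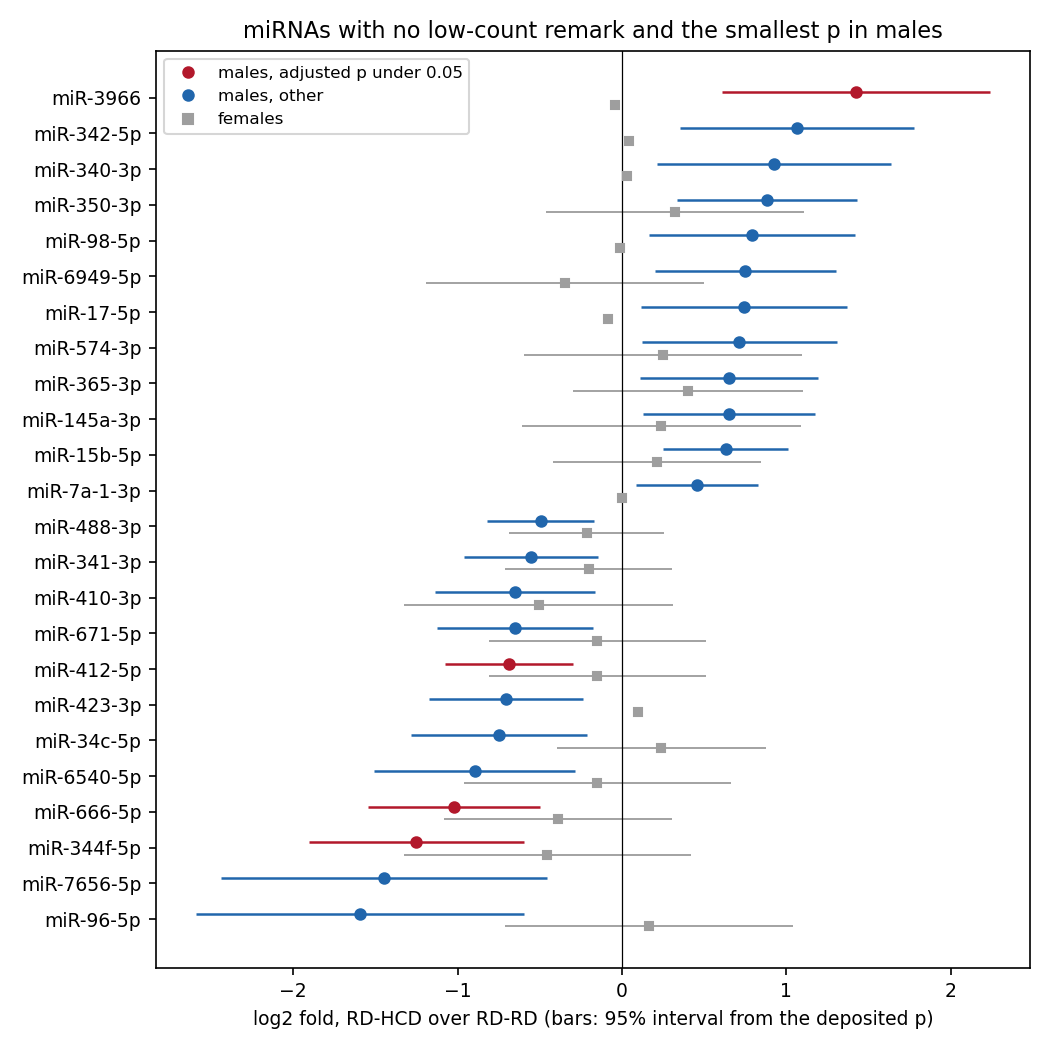
Log2 fold of RD-HCD over RD-RD for the 12 higher and 12 lower unremarked miRNAs with the smallest p in males, with bars for the 95% interval implied by the deposited p (no bar where the log2 fold is under 0.1 in size). Circles are males, red where the adjusted p is under 0.05, and grey squares are females, shown where they carry no remark; miR-3966 is at 1.42 in males and near 0 in females.

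The let-7 and miR-98 guide strands, which promote differentiation and are held down by Lin28, gave 0 calls among 11 tested against 1.47% of all miRNAs. At an unadjusted p under 0.05, 3 were higher and 0 lower, against 27 higher and 42 lower among all 860 unremarked miRNAs. All 11 carried no remark. Of the 11, 10 had ratios above 1, with a median of 1.29 and a range of 0.990 to 1.73. miR-98-5p was at 1.73, let-7g-5p at 1.49, let-7c-5p at 1.40 and let-7b-5p at 1.37, with Benjamini-Hochberg adjusted DESeq2 p-values of 0.274, 0.293, 0.397 and 0.430. Female ratios were 0.990, 1.00, 1.10 and 1.30, with a list median of 1.06. Near-identical let-7 members can share reads, so single members are uncertain.

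Neuroendocrine miRNAs, a list of the miR-7, miR-183 and miR-200 families and miR-375, had 0 calls among 9 tested. With 1.47% of all tested miRNAs called, 0 is near the background for a list of this size. The median of these 9 was 0.820, the value of miR-375-3p, a miRNA of endocrine cells. The list has 13 entries, and this median leaves out those with no p. Members of the miR-200 family among them, given below, had ratios from 0.352 to 0.621. miR-96-5p (0.331), miR-183-5p (0.457) and miR-182-5p (0.488), which come from 1 cluster known for its role in sensory cells, had unadjusted p-values of 0.00176, 0.0278 and 0.0493 in the authors' deposited table. Their female ratios were 1.12, 0.962 and 1.03. miR-7a-1-3p, the passenger strand of an endocrine miRNA hairpin, was at 1.37. miR-200b-3p, of a family that represses the transcription factors Zeb1 and Zeb2, was at 0.515 with an unadjusted p of 0.0707.

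A fold but no p was given for 10 unremarked miRNAs, which were picked out after their values were seen. They include the miR-200 family members miR-141-3p (0.352), miR-200a-3p (0.442), miR-429-3p (0.483) and miR-200c-3p (0.621). The sources do not give the reason for the missing p, so these values have no error here. The others were miR-205-5p and miR-17-3p at 0.704, miR-18b-5p at 0.935, miR-6998-3p at 0.990, miR-504-3p at 1.12 and miR-5627-3p at 1.35.

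Feeding-circuit miRNAs had 0 calls among 9 tested, near the 1.47% called over all tested miRNAs, as were the other lists in this paragraph. Only miR-488-3p had an unadjusted p under 0.05, at a ratio of 0.709, against 8.02% of all unremarked miRNAs at that level. miR-383-5p was at 0.840 and miR-103-3p at 0.862. Activity-induced miRNAs, including miR-132 and miR-212, which follow CREB activity, and miR-134, which acts in dendritic spines, gave 0 calls and 0 unadjusted p-values under 0.05. All 5 of these had ratios below 1, with a median of 0.794. Neuron-enriched miRNAs gave 0 calls among 16, with a median of 1.02.

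Inflammation-related miRNAs had 0 calls among 16, near the 1.47% called over all tested miRNAs. At an unadjusted p under 0.05, 1 was higher and 3 were lower. Among all 860 unremarked miRNAs, 27 were higher and 42 lower at that level. miR-223-3p, of myeloid cells, was at 1.49, and miR-181c-5p, miR-181a-5p and miR-181d-5p at 0.595, 0.719 and 0.730. Seed families were formed from unremarked miRNAs matched to RefSeq, and 16 had at least 3 such members. Among these the miR-181 family, known in lymphocyte receptor signalling, had the lowest median, 0.725, with 4 of 4 below 1. Its female median was 1.09. The miR-34 and miR-449 family, of multiciliated cells, came next at 0.763, without miR-34c-5p (0.595), which had no RefSeq match. The order of the miR-181 and miR-34 families therefore depends on that omission. The miR-25, miR-32 and miR-92 family followed at 0.870. The highest families were let-7 5p at 1.29 (11 of 11 above 1, with miR-1961 and without let-7j), let-7 3p at 1.24 and miR-148 and miR-152 at 1.18. Members of a family can share reads, and the families are described without a test.

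Markers of other cells gave 0 calls, which for lists this small is near the 1.47% called over all tested miRNAs. Of 10 choroid plexus and ependymal markers, miR-34c-5p (0.595) and miR-34b-5p (0.645) had an unadjusted p under 0.05, against 8.02% of all unremarked miRNAs. In the same list miR-204-5p was at 1.42. The 7 erythrocyte markers had a median of 0.971, with miR-486a-3p lowest at 0.538 (unadjusted DESeq2 p 0.0220) and miR-451a at 0.980. The 9 endothelial and mural markers had a median of 1.10, with miR-145a-3p highest at 1.57 and miR-143-5p lowest at 0.820. Oligodendrocyte markers had a median of 0.884, microglia and leukocyte markers 1.06 and muscle and liver markers 0.971. Nearly all carried no remark, so a mean of at least 10 UMIs is all that is known of their level, and the part of cell composition was not tested.

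Lipid and glucose miRNAs had 0 calls among 18, near the 1.47% called over all tested miRNAs. miR-758-3p, known to repress the cholesterol exporter Abca1, was at 0.556 with an unadjusted p of 0.0228, and miR-33-5p, in an intron of Srebf2, at 0.741. The miR-29, miR-30 and miR-17 to miR-92 lists had 0 calls each, also near that share, and medians of 1.05, 1.03 and 0.905. Each had 1 member higher at an unadjusted p under 0.05, namely miR-29b-1-5p at 1.49, miR-30c-5p at 1.36 and miR-17-5p at 1.67. Over all unremarked miRNAs, 27 of 860 were higher at that level. The repeat-derived miR-297, miR-466, miR-467 and miR-669 list had 1 call among 38, the low-count miR-297b-5p, against 1.47% of all tested miRNAs. Its median was 1.21. The plot of the lists shows every tested member.

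**Figure D3:**
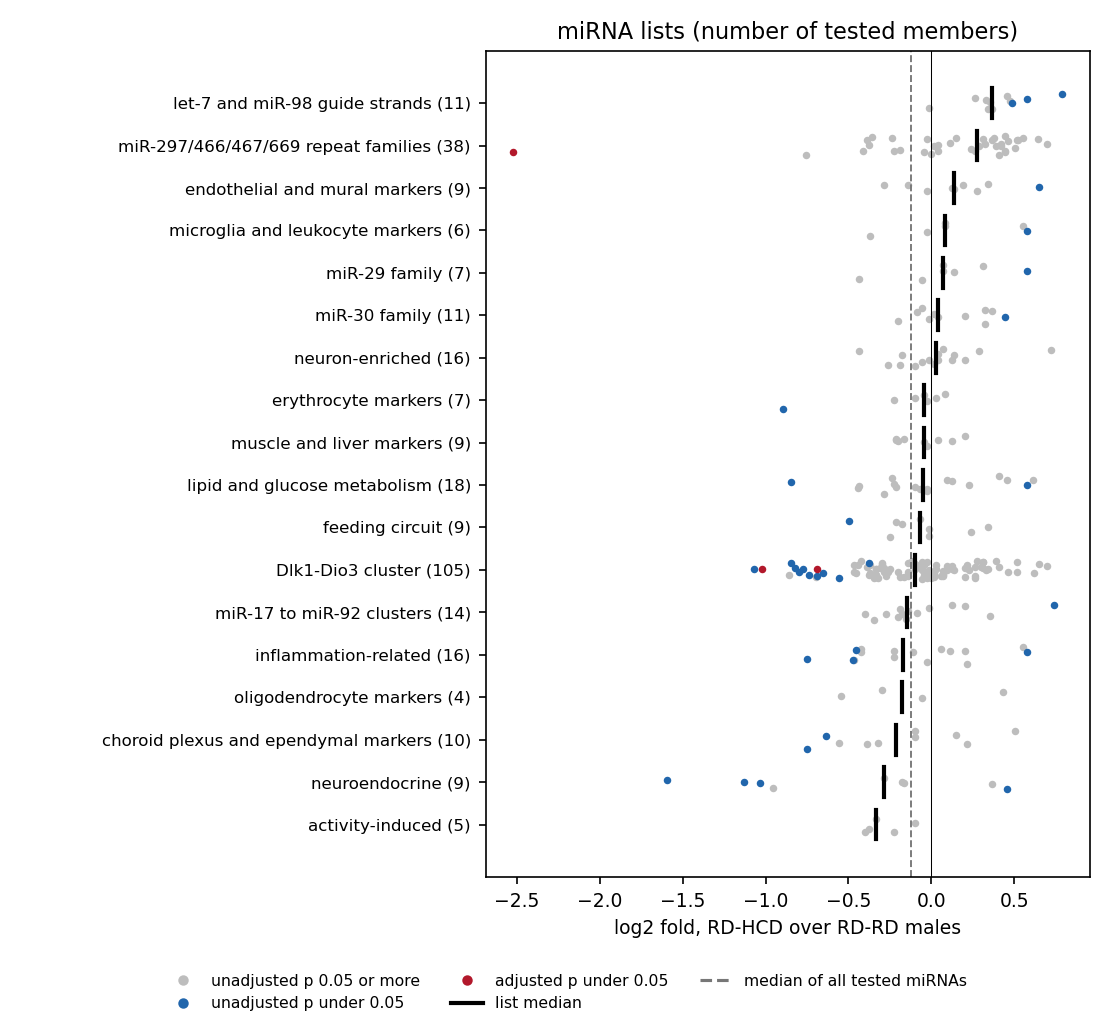
Each point is a tested miRNA of a list, with its log2 fold of RD-HCD over RD-RD males on the x axis, and black bars are list medians. Calls stand in red in the Dlk1-Dio3 and repeat-family rows, and let-7 has the highest median, at a ratio of 1.29.

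The Dlk1-Dio3 cluster, an imprinted region on chromosome 12 whose miRNAs are made from the maternally inherited allele, had 2 calls, both lower, among 105 tested, against 1.33% of all miRNAs. With these 2, 12 of the 105 were lower at an unadjusted p under 0.05, against 10.3% of all tested miRNAs, and 0 were higher, against 2.17%. Most miRNAs behind that 10.3% were low-count, whereas 95 of the 105 carried no remark, as did all of the 12 but miR-679-5p. Among the 860 unremarked miRNAs, 42 were lower at that level and 3 were called lower. The cluster's median ratio was 0.935, and 0.935 in females too. In the authors' deposited table miR-770-3p was at 0.565, miR-758-3p at 0.556, miR-380-5p at 0.599, miR-410-3p at 0.637 and miR-341-3p at 0.680, and low-count miR-679-5p at 0.476. Unremarked plus-strand miRNAs of the region with a RefSeq position, with gaps of at most 10 kb, form 3 stretches. The 23 from miR-770-5p to miR-136-3p, with miR-493-5p, which is not in the list, had a median of 0.826, with 18 below 1. The 5 from miR-341-5p to miR-370-3p had a median of 1.04, with 3 above 1. The 60 from miR-379-5p to miR-3072-3p had a median of 0.980, with 31 below 1. Unremarked miR-539-3p (0.575), miR-485-5p (0.775), miR-376c-3p (0.893) and miR-487b-3p (0.980) had no matched position and are not in the stretches. Stretches were described after values were seen.

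**Figure D4:**
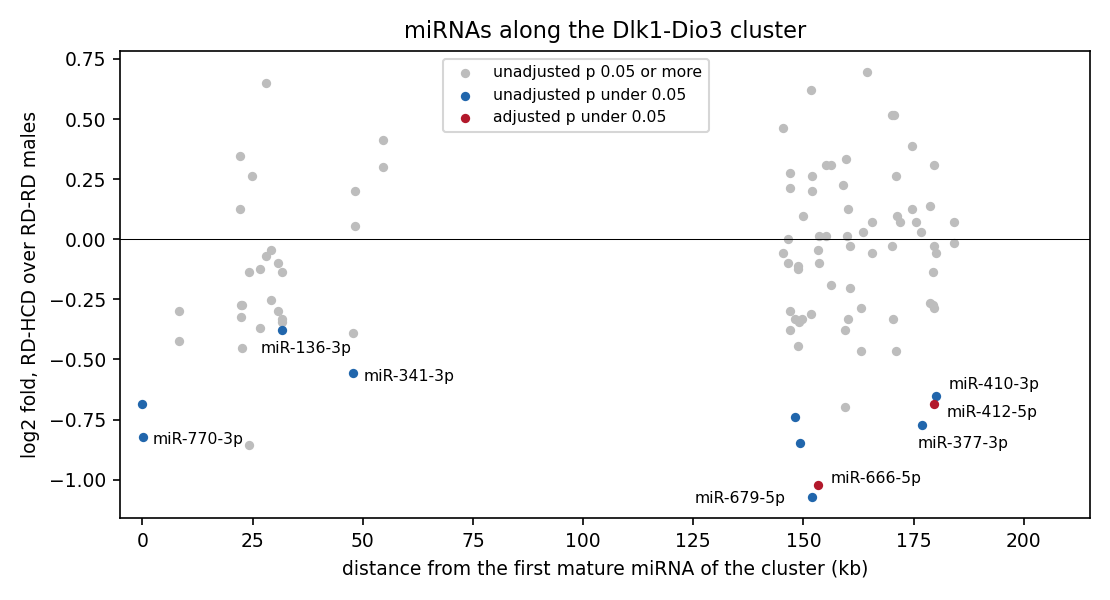
Log2 fold of RD-HCD over RD-RD males against distance in kb from the first mature miRNA of the Dlk1-Dio3 cluster. Each point is a tested miRNA with a matched position. The called miR-666-5p and miR-412-5p, at −1.02 and −0.69, lie among neighbours on both sides of 0.

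Other genomic neighbours varied too. Of 21 stretches of at least 4 unremarked miRNAs with a RefSeq position, miR-296 and miR-298 on chromosome 2 had the lowest median. It was 0.624, with 4 of 4 below 1. The highest was miR-15b and miR-16-2 on chromosome 3, at 1.36 with 4 of 4 above 1, where miR-15b-3p was at 1.52. The let-7a-1, let-7f-1 and let-7d stretch on chromosome 13 was at 1.26 with 6 of 6 above 1.

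Both arms of a hairpin come from 1 precursor, and their folds were only weakly related. Over 241 hairpins with both arms unremarked, the correlation across hairpins was 0.13 (Spearman) and 0.14 (Pearson), as a description over miRNAs that share libraries. The sign was the same in 130 (53.9%), and the median fold between arms was 1.24. Arms differed by over 2-fold in 6 hairpins. miR-539 was at 1.62 for 5p and 0.575 for 3p, miR-350 at 0.699 and 1.84, and miR-340 at 0.820 and 1.90. The called miR-412-5p (0.621) and miR-666-5p (0.493) have 3p partners at 1.24 and 0.971.

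**Figure D5:**
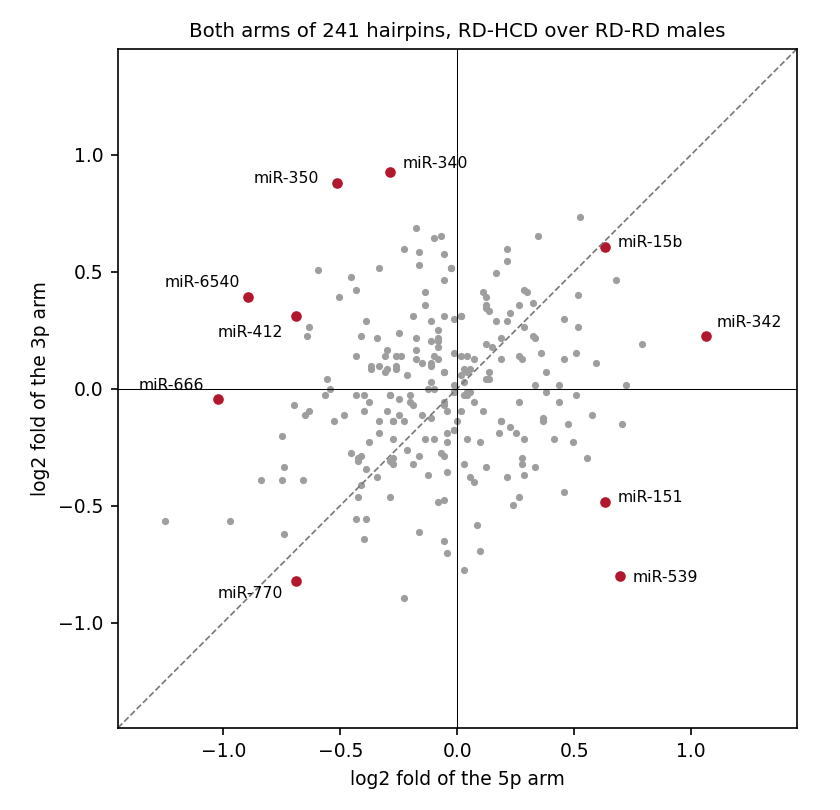
Log2 fold of the 5p arm against that of the 3p arm for 241 hairpins in RD-HCD over RD-RD males, with a dashed line of equality and red points for named hairpins. miR-539 and miR-350 lie far from the line on opposite sides, and miR-15b lies near it.

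In females, 0 of 1497 miRNAs passed (0%), the smallest Benjamini-Hochberg adjusted DESeq2 p being 0.932, and 15 had an unadjusted p under 0.05 (1.00%). Over 796 miRNAs with no remark in both sexes, male and female log2 folds correlated at 0.18 (Spearman) and 0.12 (Pearson). Of 66 with a male unadjusted p under 0.05, 42 (63.6%) had the same sign in females, against 437 (54.9%) of all. The median implied SE was 0.33 in males and 0.40 in females. The difference between the sexes was tested by a normal test on implied SEs, with 0 passing (0%) and 10 at an unadjusted p under 0.05 (3.16%). Female log2 folds of unremarked miRNAs had quartiles of −0.12 and 0.10, small beside their median implied SE of 0.40. With SEs of this size only large differences could pass, so the count of 0 does not show that the sexes respond alike. This test covered only the 316 of those 796 miRNAs with a log2 fold of at least 0.1 in size in both sexes, since the others have no implied SE. It left out miRNAs near 1 in females, among them miR-3966 (2.68 in males and 0.971 in females), let-7g-5p (1.49 and 1.00) and miR-183-5p (0.457 and 0.962), so for these the difference was not tested. The smallest p was that of miR-344d-1-5p, at 0.581 in males and 1.92 in females, with a p of 0.00307 and a Benjamini-Hochberg adjusted p of 0.752. miR-96-5p, at 0.331 and 1.12, had a p of 0.00952 and the same adjusted p. miR-7004-5p, miR-5627-5p and miR-6537-5p were at 1.26, 1.32 and 1.29 in males and at 0.382, 0.500 and 0.413 in females.

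The authors also deposited a list of HCD-HCD against RD-HCD males, which differ in the dam's diet under the same own diet, kept to miRNAs that differed at least 2-fold with a p no higher than 0.05. It holds 47 miRNAs, 10 higher and 37 lower in HCD-HCD, and 0 of them were called in RD-HCD against RD-RD, where 1.47% of all tested miRNAs were called, so a count of 0 among 47 is near the background. In the authors' deposited list, miR-100-5p was at 2.59, miR-99a-5p at 2.48 and miR-181b-5p at 2.03 in HCD-HCD over RD-HCD, and miR-33-5p at 0.350, miR-301a-3p at 0.389 and miR-29b-3p at 0.429. Against RD-RD, RD-HCD stood at 0.926, 0.935, 0.746, 0.741, 0.813 and 1.24 for the same miRNAs. RD-HCD libraries are shared by both comparisons, so the values stand side by side only.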

How the data were processed

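Hypothalamic small RNA was sequenced with the QIAseq miRNA kit, per the labels' protocols. The authors normalized UMI counts with DESeq2 (per the file headers); the deposited values are a fold (ratio) with 2 decimals, a fold regulation score (the fold, or minus its inverse below 1) and an unadjusted p-value per miRNA, which DESeq2 returned to the authors. The submitters' processing notes name build mm10. The authors' DESeq2 version, aligner and counting rule: not given in the sources used here. A test on counts was not possible with these units. Benjamini-Hochberg adjustment was run on the deposited p-values of all miRNAs with one, and calls were made under 0.05. Implied errors, not given for a log2 fold under 0.1, came from the normal score of p. Named were all calls, the 12 smallest p in each direction with no remark, up to 4 members per list, the 5 smallest p between sexes, the 3 next outside the threshold, the 6 smallest p of the HCD-HCD list, the 3 highest and lowest seed families and the other arms. The members and the 18 lists were chosen with earlier results of these data known. RefSeq GRCm38.p6 matched 1389 of 1618 names; hosts are from GENCODE M21. Scripts, tested on simulated data, used Python 3.11.15, numpy 2.4.6, pandas 2.3.3 and SciPy 1.17.1.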

Additional observations from a re-analysis of the deposited data

How the results depend on the processing

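The count of 21 calls in males stayed at 21 with a fold of at least 1.5, with piRNA entries in the adjustment and without miRNAs at 0 in both groups, and was 20 with a fold of at least 2. It was 0 when only the 860 miRNAs with no remark were adjusted, 6 with Benjamini-Yekutieli, 7 with Holm and 51 at an unadjusted p under 0.01. Without miRNAs low in both groups it was 12, all lower; this setting and the one without miRNAs at 0 in both groups were chosen after seeing the data. The females' count and the difference between sexes stayed at 0 under their alternatives. Centring the folds leaves p unchanged and so could not change the count. The 432 alternatives of list medians and single miRNAs (centred folds, the fold column, and lists without remarked members) kept their direction, and none of them adjusts p again. They could hardly have changed it. Centring subtracted a log2 fold of −0.014, the fold column moved log2 folds by at most 0.033, and most lists hold no remarked member. Adjusting p over unremarked miRNAs alone ended all 4 calls with no remark. No paired analysis was possible because the files hold no value per library, and leaving out each library was not run for the same reason. The calls rest mostly on low counts, and depth per library is unknown.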

Other observations

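Of 89 piRNA entries with a p in RD-HCD against RD-RD males, 5 had an unadjusted p under 0.05, 3 higher and 2 lower. Among tested miRNAs, 12.5% had one. Of the 5 piRNA entries only mmu_piR_003399, at 1.38, carried no low-count remark. A Benjamini-Hochberg adjusted DESeq2 p of 0.05 was passed by 0 piRNA entries, against 1.47% of tested miRNAs.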
